A study of Mus musculus with 20 samples.

Results

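The genes described here are 5 subunits of the phagocyte NADPH oxidase (Cybb, Cyba, Ncf1, Ncf4 and Rac2) together with Nox4, the oxidase isoform most often placed in adipocytes and stromal cells. They were chosen by name, and 6 of 6 were found among the 14776 genes of the deposited FPKM table (fragments per kilobase of exon, scaled to the mapped reads of the library, so that levels of different genes can be compared). Whole epididymal white fat (eWAT) was sequenced from 20 mice, all C57BL/6J males, with 1 library per mouse. The normal control group (NC, n = 6) received chow. The high-fat diet group (HFD, n = 7) received feed with 60% of its energy from fat, and saline by gavage in the last 6 of 20 weeks. The third group (SZ-A, n = 7) received the same feed for the same time, and SZ-A, an alkaloid preparation from mulberry (Morus alba) twigs, at 400 mg/kg per day in place of saline in those 6 weeks. All mice were 6 weeks old at the start. HFD and SZ-A mice therefore share diet and gavage and differ in the preparation, whereas NC differs from both in feed. Gavage is named for the HFD and SZ-A groups and is not clearly stated for NC, which may therefore differ in gavage too.

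In resting phagocytes the oxidase is taken apart: Cybb (gp91phox, the catalytic subunit that passes electrons from NADPH to oxygen) and Cyba (p22phox, its partner) sit in the membrane, while Ncf1 (p47phox, the organizer) and Ncf4 (p40phox, which binds a membrane phosphoinositide) wait in the cytosol. On activation the cytosolic subunits and the GTPase Rac2 move to the membrane and the complex makes superoxide. Nox4 also needs Cyba, but it works without the cytosolic subunits, releases mainly hydrogen peroxide and is set largely by its own abundance. In obese fat, macrophages are a major site of the phagocyte oxidase and have been studied for oxidative stress and insulin resistance.

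Stretches of 250 bases just before the transcription start given by RefSeq are shown because all 6 genes rose with HFD, the phagocyte subunits by larger fold changes than Nox4. RefSeq sequences (GRCm38.p6) were matched for 4 of the 6 genes, namely Cybb, Cyba, Ncf1 and Nox4. In each run, read 5′ to 3′ on the strand of the gene, capitals mark the letters of the motifs searched on both strands. Cybb lies at chrX:9469325-9469574, Cyba at chr8:122432941-122433190 and Ncf1 at chr5:134229626-134229875 (all on the minus strand), and Nox4 at chr7:87246399-87246648 on the plus strand. The RefSeq start lies 18447 bases inside the annotated gene for Cybb and 553 bases inside it for Nox4, whose annotations begin further upstream, so these windows lie within the gene spans given below.
Cybb: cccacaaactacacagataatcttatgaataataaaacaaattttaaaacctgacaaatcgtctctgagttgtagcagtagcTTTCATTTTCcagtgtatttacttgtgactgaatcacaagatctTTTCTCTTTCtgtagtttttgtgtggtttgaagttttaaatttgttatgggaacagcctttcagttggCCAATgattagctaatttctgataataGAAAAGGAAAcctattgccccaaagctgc
Ncf1: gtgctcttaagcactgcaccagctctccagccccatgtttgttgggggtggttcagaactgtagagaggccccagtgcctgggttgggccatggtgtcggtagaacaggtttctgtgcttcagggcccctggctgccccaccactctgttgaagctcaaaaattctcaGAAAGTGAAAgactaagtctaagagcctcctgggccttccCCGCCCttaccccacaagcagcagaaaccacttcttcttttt
Cyba: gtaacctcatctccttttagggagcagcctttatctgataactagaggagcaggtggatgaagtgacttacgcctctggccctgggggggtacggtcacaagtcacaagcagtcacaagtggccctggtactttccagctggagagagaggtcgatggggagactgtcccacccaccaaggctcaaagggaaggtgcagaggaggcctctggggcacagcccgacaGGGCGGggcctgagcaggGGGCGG
Nox4: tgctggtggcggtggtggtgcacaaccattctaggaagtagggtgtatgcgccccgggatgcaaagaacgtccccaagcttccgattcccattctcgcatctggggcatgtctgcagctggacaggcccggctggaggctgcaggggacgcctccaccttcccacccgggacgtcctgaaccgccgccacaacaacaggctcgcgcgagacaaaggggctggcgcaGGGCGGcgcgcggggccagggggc
A pair of TTTC blocks with 2 bases between them, a core of interferon-response elements, occurred 3 times before Cybb (starting 168, 124 and 29 bases before the start, the last on the opposite strand) and 1 time before Ncf1 (82 bases before the start, opposite strand). Of 32851 mouse promoters of the same length, 2.98% held this motif. It was not among the letters of the Cyba and Nox4 windows. The GC box GGGCGG, held by 32.7% of all promoters, occurred 2 times before Cyba, and 1 time each before Ncf1 and Nox4. CCAAT, held by 33.8%, occurred 1 time before Cybb, and GAGGAA, a core of PU.1 sites held by 23.3%, in none of the 4 windows. No motif overlapped another. The Cybb window had a GC content of 34% against 67.2% for Nox4, 60% for Cyba, 54.4% for Ncf1 and a median of 52.4% over all promoters.

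Between 13567667 and 19388628 reads per mouse lay on genes, with medians of 16731471 in NC, 18612600 in HFD and 17708012 under SZ-A. A pair of libraries stood apart from their groups. NC mouse 6 had a median correlation of 0.765 with the other NC mice, a summed level of 10 adipocyte markers of 487 FPKM (median of NC 14109) and a summed level of 16 macrophage markers of 88.1 FPKM (median of NC 537), so adipocyte markers were present but low in this library. It had the lowest levels of its group for 5 of the 6 members. SZ-A mouse 5 had a median correlation of 0.895 with its group, the highest summed macrophage markers of its group (4779 FPKM, next 3609, median 1702) and the highest mitochondrial share of reads of all mice (11.6%, against 1.67% to 8.34% in the others). Results of the 6 genes that rest on NC mouse 6 or SZ-A mouse 5 are given with and without them.

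The first comparison asks how the oxidase genes differed between HFD and NC mice. All 6 genes were higher in HFD, the 5 phagocyte subunits by 11.7-fold to 19.4-fold in mean FPKM and Nox4 by 3.17-fold. All 6 passed an adjusted p of 0.05 (limma on log2(FPKM + 1), Benjamini-Hochberg over all 14706 genes tested), against 21% of all genes tested that passed and were higher. The 5 phagocyte subunits also passed a limit of a log2 fold change above 1.5, the one in the study's methods (its results text has a fold change above 1.5), which 5.43% of all genes passed on the higher side, and in these 5 no HFD mouse overlapped an NC mouse, which held for 12.7% of all genes. The median log2 difference was 3.37 over the 6 genes and -0.04 over all genes tested.

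Of the membrane subunits, Cybb (ENSMUSG00000015340, chrX:9435252-9487771, minus strand) was at 0.520 FPKM in the lowest, 3.47 in the median and 6.48 in the highest NC mouse, and at 46.8, 62.1 and 119 FPKM in HFD mice. Its lowest HFD value was above every NC value, and its log2 fold change, 4.09 ± 0.37 (SE) at an adjusted p of 1.63e-06, was the highest of the 6. Cyba (ENSMUSG00000006519, chr8:122424776-122432930, minus strand) was the most abundant member. It rose from 10.6 (lowest), 28.0 (median) and 34.4 (highest) FPKM in NC to 223, 343 and 530 FPKM in HFD, a log2 fold change of 3.73 ± 0.28 (adjusted p = 4.20e-07), again with no overlap.

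The cytosolic subunits moved in the same way. Ncf1 (ENSMUSG00000015950, chr5:134220053-134229625, minus strand) was at 2.12, 3.15 and 6.25 FPKM (lowest, median, highest) in NC and at 23.8, 29.6 and 86.2 FPKM in HFD, a log2 fold change of 3.15 ± 0.30 (adjusted p = 2.89e-06). Its exons share 408 bases with Gtf2ird2 on the opposite strand, and the counting is not stated to use strand, so reads of that stretch cannot be told apart. Gtf2ird2 itself averaged 2.13 ± 0.898 FPKM (SD, n = 6) in NC and 1.40 ± 0.196 FPKM (SD, n = 7) in HFD and did not pass (adjusted p = 0.070). Ncf4 (ENSMUSG00000071715, chr15:78244801-78262580, plus strand) was at 0.374, 1.46 and 2.497 FPKM in NC and 16.005, 18.9 and 34.3 FPKM in HFD, a log2 fold change of 3.32 ± 0.25 (adjusted p = 4.02e-07). Rac2 (ENSMUSG00000033220, chr15:78559167-78572783, minus strand), the haematopoietic Rac GTPase, lies 296586 bases from the end of Ncf4. It was at 0.398, 3.53 and 4.88 FPKM in NC and at 26.7, 35.2 and 69.9 FPKM in HFD, a log2 fold change of 3.42 ± 0.34 (adjusted p = 4.03e-06). In each of these 3 genes the HFD mice were all above the NC mice.

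Nox4 (ENSMUSG00000030562, chr7:87246096-87398710, plus strand) was the least abundant member. It was at 0.0081, 0.329 and 1.15 FPKM in NC and at 0.761, 1.48 and 1.67 FPKM in HFD. The groups overlapped, since NC mouse 3, at 1.15 FPKM, exceeded HFD mouse 5. The log2 fold change was 0.76 ± 0.16 (adjusted p = 0.0020). At these low levels the added 1 FPKM compresses the change: with a pseudocount of 0.1 the log2 fold change was 1.82, and limma-voom on reads recovered from the FPKM values gave 2.48 (adjusted p = 0.011). The lowest NC value rested on 1 read in NC mouse 6, while the HFD mice held 113 to 251 Nox4 reads. Without NC mouse 6 all 6 genes still passed, with log2 fold changes of 3.82 for Cybb, 3.50 for Cyba, 3.12 for Ncf1, 3.16 for Ncf4, 3.13 for Rac2 and 0.67 for Nox4.

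**Figure D1:**
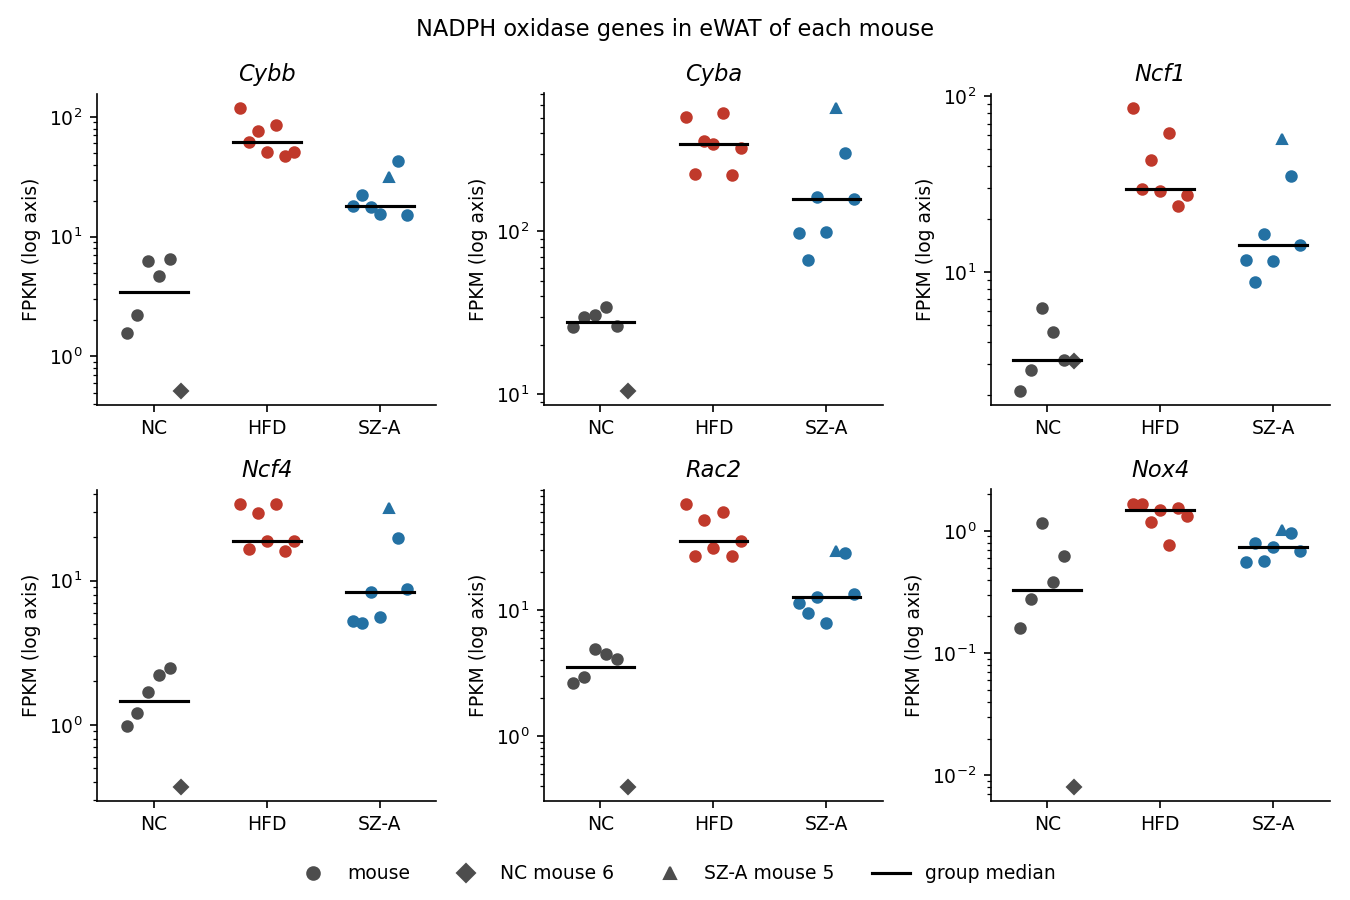
FPKM of Cybb, Cyba, Ncf1, Ncf4, Rac2 and Nox4 (1 panel each, log axis) in every mouse of NC, HFD and SZ-A, with the group median as a bar; the diamond is NC mouse 6 and the triangle SZ-A mouse 5. HFD mice lie above all NC mice in the first 5 panels, SZ-A mice lie below all HFD mice for Cybb alone, and SZ-A mouse 5 stands at 575 FPKM of Cyba, above every HFD mouse.

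The second comparison asks how SZ-A changed these genes in mice kept on the high-fat diet. Cybb, Rac2, Ncf4 and Nox4 fell, and Cyba and Ncf1 did not pass. In this comparison 4 of 6 members passed on the lower side, against 13.3% of the 14695 genes tested. Cybb was the only member that also passed the log2 limit of 1.5, as 0.558% of all genes did on the lower side, and the only one in which no SZ-A mouse overlapped an HFD mouse (4.01% of all genes). With a fold change above 1.5 on the log2(FPKM + 1) scale as the limit, 3 members passed (Cybb, Rac2 and Ncf4), as did 7.37% of all genes on the lower side. Nox4 missed that limit on this scale, where the added 1 FPKM compresses changes of low genes. The median log2 difference was -1.12 over the 6 genes and 0.03 over all genes tested.

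Cybb was at 15.3 FPKM in the lowest, 18.0 in the median and 42.4 in the highest SZ-A mouse, and the highest was below the lowest HFD mouse (46.8 FPKM). The mean of the 7 HFD mice was 70.4 ± 26.1 FPKM (SD) and that of the 7 SZ-A mice 23.2 ± 10.1 FPKM (SD), which is 3.03-fold lower. The log2 difference was -1.58 ± 0.25 (SE) at an adjusted p of 0.0011. An exact permutation test over mice, two-sided, gave p = 0.00058, the smallest this design allows. Rac2 was at 7.91, 12.7 and 29.5 FPKM in SZ-A, and 5 of 7 SZ-A mice were below every HFD mouse. Its log2 fold change was -1.42 ± 0.31 (adjusted p = 0.0050), a mean FPKM 2.66-fold lower. Ncf4 was at 5.08, 8.34 and 32.1 FPKM in SZ-A, with 5 of 7 mice below every HFD mouse and a log2 fold change of -1.16 ± 0.36 (adjusted p = 0.031). For both genes SZ-A mice 5 and 6 were the ones inside the HFD range.

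Cyba and Ncf1 had the same 5 SZ-A mice below every HFD mouse, and a wider spread. Cyba was at 66.5, 157 and 575 FPKM in SZ-A, where the coefficient of variation was 0.859 against 0.339 in HFD, and SZ-A mouse 5 had the highest Cyba value of all 20 mice. Its log2 fold change was -1.08 (95% interval -1.94 to -0.21, adjusted p = 0.068). Ncf1 was at 8.78, 14.2 and 56.9 FPKM in SZ-A, with a log2 fold change of -1.07 (95% interval -1.91 to -0.23, adjusted p = 0.062). Both intervals lie below 0, and both include the log2 fold change of Cybb.

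Nox4 was at 0.554, 0.731 and 1.01 FPKM in SZ-A, and 4 of 7 SZ-A mice were below every HFD mouse. The mean fell from 1.38 ± 0.324 FPKM (SD, n = 7) to 0.758 ± 0.178 FPKM (SD, n = 7), a log2 difference of -0.43 ± 0.10 (SE) at an adjusted p of 0.0087. On recovered reads limma-voom gave -0.86 (adjusted p = 0.0088). Nox4, the gene placed outside phagocytes, thus passed in this comparison while Cyba and Ncf1 did not. Its mean FPKM was 1.82-fold lower, against 1.72-fold lower for Cyba and 1.94-fold lower for Ncf1. The SZ-A means of Cyba and Ncf1 include mouse 5 (575 and 56.9 FPKM), without which both genes passed.

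**Figure D2:**
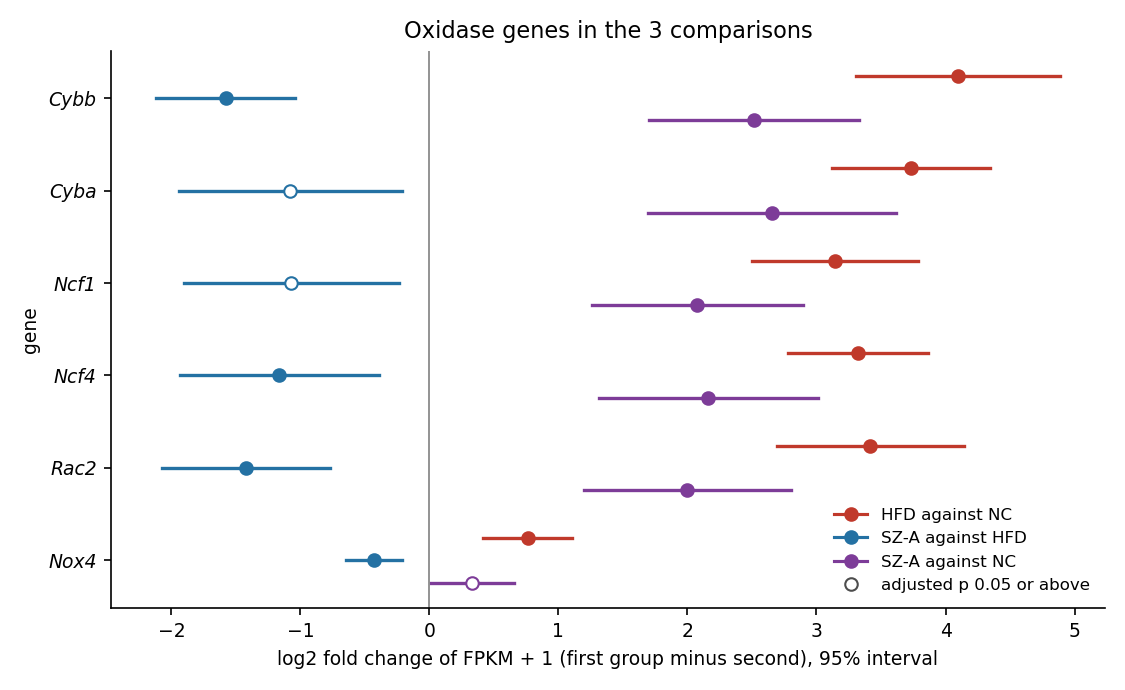
Log2 fold change on the log2(FPKM + 1) scale (horizontal axis) of each gene in the 3 comparisons, with 95% intervals from limma; open circles have an adjusted p of 0.05 or above. Cyba and Ncf1 are open for SZ-A against HFD and Nox4 is open for SZ-A against NC.

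Single mice decided which genes passed. Without SZ-A mouse 5 all 6 genes passed, with log2 fold changes of -1.38 for Cyba (adjusted p = 0.0064) and -1.34 for Ncf1 (adjusted p = 0.0095). Without SZ-A mouse 6 all 6 passed as well, Cyba with an adjusted p of 0.043 and Ncf1 with 0.037. Ncf4 missed the threshold in 8 of 14 fits that left out 1 mouse, namely HFD mouse 1, 3 or 5 or SZ-A mouse 1, 2, 3, 4 or 7, where its adjusted p was at most 0.069. Cybb, Rac2 and Nox4 passed in 14 of 14, with highest adjusted p-values of 0.0035, 0.014 and 0.021.

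**Figure D3:**
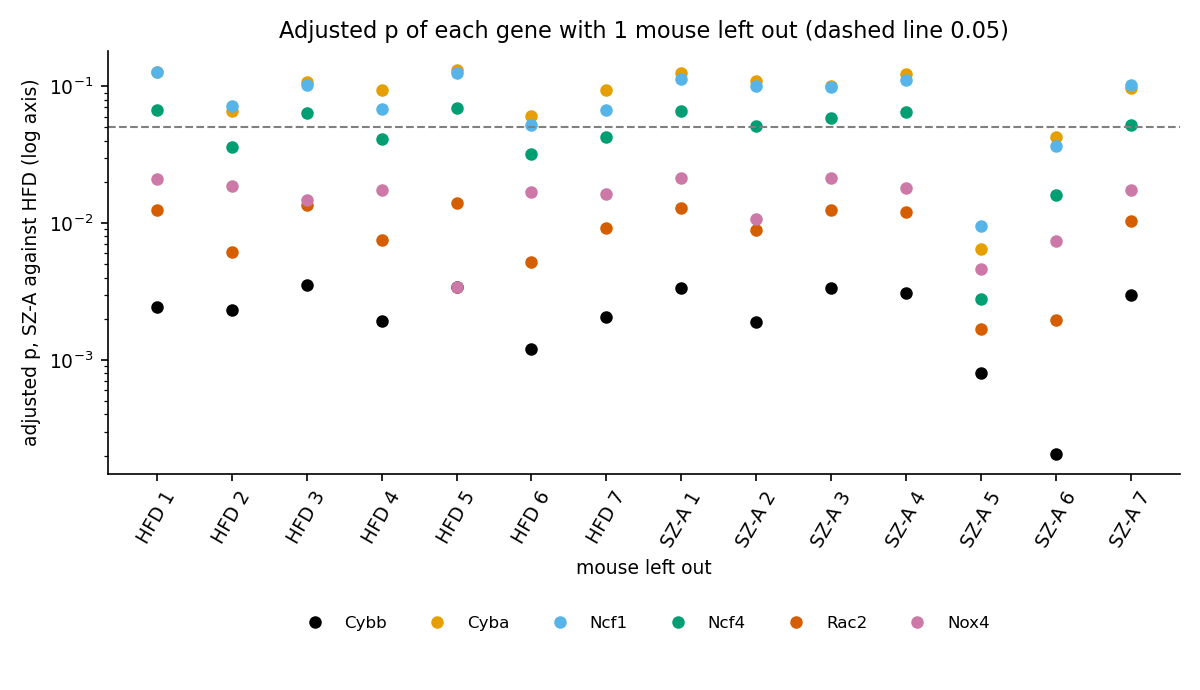
Adjusted p of each gene in SZ-A against HFD (log axis) when the mouse named on the horizontal axis is left out; the dashed line is 0.05. Cybb, Rac2 and Nox4 stay below the line in 14 of 14 fits, and Cyba and Ncf1 cross it when SZ-A mouse 5 or 6 is left out.

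The third comparison sets treated mice on the high-fat diet beside lean controls. The 5 phagocyte subunits remained higher in SZ-A than in NC, at 4.98-fold to 8.10-fold in mean FPKM. They passed the adjusted p of 0.05, as did 4.15% of the 14718 genes tested on the higher side, and also the log2 limit of 1.5 (1.73% of all genes on the higher side). No SZ-A mouse overlapped an NC mouse in any of the 5, which held for 3.22% of all genes. Log2 fold changes were 2.52 ± 0.38 for Cybb (SE, adjusted p = 0.0021), 2.65 ± 0.45 for Cyba (0.0040), 2.08 ± 0.38 for Ncf1 (0.0065), 2.16 ± 0.40 for Ncf4 (0.0064) and 1.999 ± 0.374 for Rac2 (0.0074). For Nox4 the difference was 0.33 with a 95% interval of 0.0095 to 0.66, and it did not pass (adjusted p = 0.25), except without NC mouse 3 (adjusted p = 0.040). This comparison and the first share the NC mice, and it shares the SZ-A mice with the second. Without NC mouse 6 and SZ-A mouse 5, a choice made after seeing the data, the same 5 genes passed, with log2 fold changes of 1.54 for Rac2 to 2.16 for Cybb. On limma-voom the Nox4 difference was 1.64 (adjusted p = 0.24).

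Macrophage markers moved with the phagocyte subunits in each comparison. The 16 markers summed to 88.1 to 857 FPKM in NC mice, 3561 to 9453 in HFD mice and 1446 to 4779 in SZ-A mice, and 14 of 16 rose with HFD, 13 of 16 fell with SZ-A and 11 of 16 were higher in SZ-A than in NC. Of all genes tested, 21%, 13.3% and 4.15% passed in these directions. With 1 mouse left out, 13 to 14 rose with HFD (13 without NC mouse 6). Those that fell with SZ-A then numbered 11 to 14 (14 without SZ-A mouse 5). Those higher in SZ-A than in NC numbered 8 to 12. In a bulk sample, fewer cells of a type and less RNA per cell cannot be told apart, and the part of macrophage number in the oxidase values was not tested. SZ-A mice 5 and 6 had the highest values of their group for each of the 5 phagocyte subunits, and also its highest macrophage sums. A single marker, Lyz2, made up much of that sum. It averaged 238 of a mean sum of 489 FPKM in NC, 2890 of 5683 in HFD and 1277 of 2358 in SZ-A. Ratios to the sum therefore lean on this gene. The log2 ratio of Cybb to the macrophage sum varied little among HFD mice (-6.34 ± 0.10, SD, n = 7), and was -7.23 ± 0.45 (n = 6) for NC mice and -6.61 ± 0.39 (n = 7) for SZ-A mice. The lowest SZ-A ratio was in mouse 5 (-7.25). Cyba relative to the same sum was at -4.01 ± 0.63 in NC, -3.99 ± 0.26 in HFD and -3.71 ± 0.46 under SZ-A, so group means differed by less than the spread in NC and SZ-A. The corresponding means for Ncf1 were -6.86 ± 1.02, -7.13 ± 0.25 and -6.90 ± 0.31. Those for Ncf4 were -8.30 ± 0.43, -7.89 ± 0.21 and -7.80 ± 0.38, and for Rac2 -7.29 ± 0.31, -7.07 ± 0.22 and -7.21 ± 0.23. The NC mean of Ncf1 rested on NC mouse 6 (-4.82), since the other NC mice lay at -7.57 to -7.05. Of the fibroblast and progenitor markers, 5 of 7 rose and 1 fell with HFD, and 6 of 7 fell with SZ-A, the directions of Nox4. Of 10 adipocyte markers, 1 rose and 2 fell with HFD, and 2 rose and 0 fell with SZ-A. The median log2 differences of these 10 (-0.21 and 0.88) ran opposite to Nox4. The part of either cell type in the Nox4 values was not tested.

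**Figure D4:**
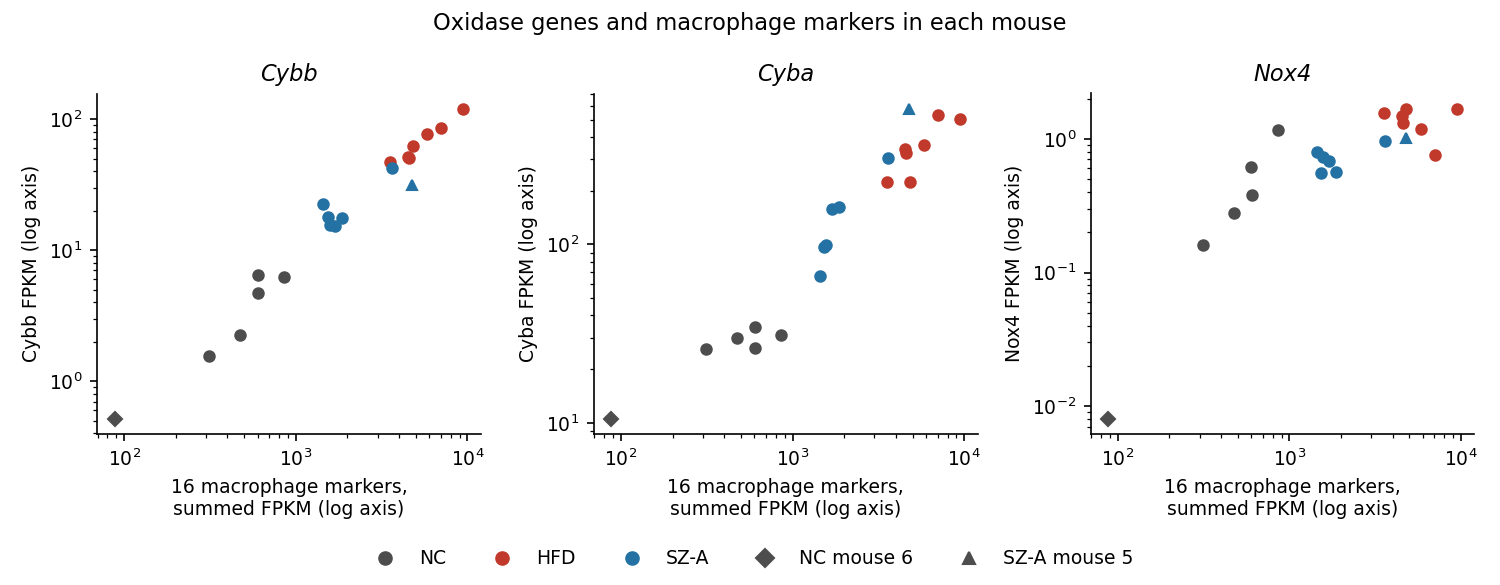
FPKM of Cybb, Cyba and Nox4 against the summed FPKM of 16 macrophage markers, 1 point per mouse, log axes. Cybb rises with the sum. Its log2 ratio to the sum was lower in every NC mouse (-7.73 to -6.53) than in every HFD mouse (-6.50 to -6.25). SZ-A mouse 5 (31.3 FPKM of Cybb at a sum of 4779) has the lowest such ratio of its group, and its Cyba lies at the top. Nox4 of the HFD mice spans 0.761 to 1.67 FPKM over sums of 3561 to 9453.

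The level of Cybb relative to Nox4 does not depend on library scaling. The ratio was 5.45, 10.1 and 64.2 in NC (lowest, median, highest), 30.2, 38.4 and 113 in HFD, and 21.2, 31.1 and 44.1 in SZ-A. The mean log2 ratio was 3.62 ± 1.23 (SD, n = 6) in NC, 5.64 ± 0.70 (n = 7) in HFD and 4.87 ± 0.36 (n = 7) under SZ-A. It rose by 2.02 from NC to HFD (exact permutation test, two-sided, p = 0.0064) and the SZ-A mean differed from the HFD mean by -0.77 (exact permutation p = 0.020), with overlapping groups in both cases. Between SZ-A and NC the difference was 1.25 (exact permutation p = 0.027), which missed 0.05 on ranks (p = 0.051) and in 5 of 13 tests with 1 mouse left out (without NC mouse 1, 2, 3 or 5 or SZ-A mouse 6, p of at most 0.066). The highest NC ratio, in mouse 6, rested on 44 Cybb reads and 1 Nox4 read, so that its 95% counting interval ran from 10.9 to 2592. Without that mouse the differences from NC were 2.49 for HFD and 1.72 for SZ-A, each with an exact permutation p of 0.0013, the smallest that 7 against 5 mice can give.

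**Figure D5:**
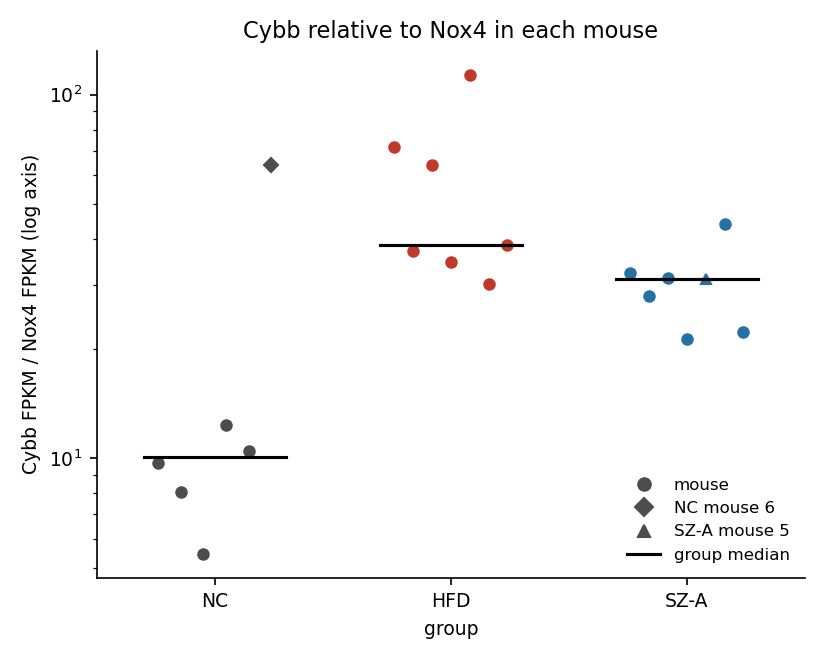
Ratio of Cybb to Nox4 FPKM in each mouse (log axis) by group, with the group median as a bar. The NC mice other than mouse 6 (diamond, 64.2) lie between 5.45 and 12.3, below all HFD and SZ-A mice.

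On the FPKM scale, which takes gene length into account, Cyba was the highest and Nox4 the lowest of the 6 in 20 of 20 mice. Cyba made up 59.3% to 79.3% of the summed FPKM of the 5 phagocyte subunits. Cybb came next in HFD in 7 of 7 mice, above Ncf1 (means 70.4 and 43.0 FPKM). Ncf1 and Rac2 could not be ordered in HFD, where both had a mean of 43.0 FPKM and Ncf1 was higher in 3 of 7 mice. Ncf4 was below Rac2 in 7 of 7 HFD mice and 6 of 7 SZ-A mice. In NC, the means of Ncf1 (3.66), Cybb (3.63) and Rac2 (3.24 FPKM) did not differ beyond their spread. SZ-A mouse 5 had an order of its own, with Cyba, Ncf1 and Ncf4 above Cybb and Rac2, and a Cyba to Cybb ratio of 18.3 against a group median of 7.15. That ratio had medians of 9.87 in NC and 4.77 in HFD.

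Among the other oxidase genes, 7 of 13 listed were measured, and Nox1, Nox3, Noxa1, Duox1, Duox2 and Duoxa2 were not analysed here. In HFD against NC 4 of the 7 rose and 1 fell, in SZ-A against HFD 1 rose and 1 fell, and in SZ-A against NC 1 was higher. Of all genes tested, 21% rose and 20.1% fell with HFD, and 9.47% rose and 13.3% fell with SZ-A. In SZ-A against NC, 4.15% were higher. The 1 that fell with HFD, and the 1 that rose and 1 that fell with SZ-A, are near those shares. The 2 that passed in SZ-A against HFD, Rac1 and Poldip2, each did so in 10 of 14 fits with 1 mouse left out. Rac1 missed the threshold without HFD mouse 1, 3 or 5 or SZ-A mouse 7 (adjusted p of at most 0.062), and Poldip2 without HFD mouse 1 or 5 or SZ-A mouse 3 or 4 (at most 0.054).

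Rac1, the Rac GTPase found in most cells, was at a mean of 61.0 FPKM in NC, 97.1 in HFD and 69.2 under SZ-A. It rose with HFD (0.67 ± 0.14, adjusted p = 0.0020) and fell with SZ-A (-0.50 ± 0.15, adjusted p = 0.029). The ratio of Rac2 to Rac1 had medians of 0.057 in NC, 0.394 in HFD and 0.168 under SZ-A. Cybc1, a chaperone that Cybb and Cyba need for assembly, rose with HFD (0.76 ± 0.14, adjusted p = 8.49e-04) and had a difference of -0.42 with SZ-A that did not pass (adjusted p = 0.10). Rac3, a further Rac GTPase, showed a similar pair of values, 0.68 (adjusted p = 0.010) and -0.40 (adjusted p = 0.22); without SZ-A mouse 5 both Cybc1 (-0.53, adjusted p = 0.024) and Rac3 (-0.61, adjusted p = 0.0074) passed. Poldip2, a protein that binds Cyba and raises Nox4 activity, moved against the members: it fell with HFD (-0.43, adjusted p = 0.014) and rose with SZ-A (0.40, adjusted p = 0.023). Duoxa1, the maturation factor of the dual oxidase Duox1, rose with HFD (0.96, adjusted p = 0.0011) and stayed above NC in SZ-A (1.31, adjusted p = 0.0020), with a difference of 0.35 between SZ-A and HFD that did not pass (adjusted p = 0.18). Rap1a, a small GTPase found with the membrane subunits, and Noxo1, the organizer of Nox1, passed in none of the 3 comparisons, where their adjusted p-values in limma were 0.14 to 0.86 and 0.15 to 0.91.

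Most of the genes listed as regulators of the oxidase complex, Arhgdia, Arhgdib and Hvcn1 among them, moved with the members. Of 21 measured, 18 rose with HFD (median log2 difference 2.11), 15 fell with SZ-A (median -1.04) and 12 were higher in SZ-A than in NC. With 1 mouse left out these counts ran from 17 to 18, 12 to 17 and 9 to 13. The 4 with the smallest adjusted p for SZ-A were Prex1 (-1.20, adjusted p = 3.04e-04) and Dock2 (-1.47, adjusted p = 9.78e-04), exchange factors that load Rac GTPases, and Pik3cg (-1.09, adjusted p = 3.04e-04) and Pik3cd (-1.14, adjusted p = 9.78e-04), catalytic subunits of leukocyte phosphoinositide 3-kinases. Of 9 measured transcription factors known at oxidase genes, 5 rose with HFD (3 to 5 with 1 mouse left out), 4 fell with SZ-A and 2 were higher in SZ-A than in NC. The shares of all genes tested in these directions were 21%, 13.3% and 4.15%. Spi1 (PU.1) averaged 4.03 FPKM in NC, 91.8 in HFD and 39.6 under SZ-A, with a log2 fold change of -1.36 (adjusted p = 0.0097) for SZ-A. Irf8 (-0.92, adjusted p = 0.013), Runx1 (-0.80, adjusted p = 0.0059) and Nfkb1 (-0.58, adjusted p = 7.22e-04) were the other 3 that fell.

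Of 13 measured enzymes that act on superoxide and hydrogen peroxide, 1 rose and 4 fell with HFD, where 20.1% of all genes fell, and 2 rose and 1 fell with SZ-A, where 9.47% of all genes rose. These counts are near those shares and are no result about the enzymes. Without NC mouse 6, 6 fell with HFD. Between SZ-A and NC 0 passed in limma, where 4 had an unadjusted p under 0.05. Gpx3, the secreted glutathione peroxidase, had medians of 1737 FPKM in NC, 303 in HFD and 582 under SZ-A. Its group means (2649, 326 and 1074 FPKM) rested on single mice, since that of NC was 1540 FPKM without mouse 1 (8195 FPKM) and that of SZ-A 708 FPKM without mouse 7 (3270 FPKM). Those mice also held the highest and second highest summed epithelial markers apart from NC mouse 6 (510 and 195 FPKM, against at most 3.30 in HFD mice), whose part in the Gpx3 values was not tested. Gpx3 rose with SZ-A (1.35, adjusted p = 0.026; 1.01, adjusted p = 0.025 without SZ-A mouse 7) in 13 of 14 fits with 1 mouse left out, the exception being HFD mouse 5 (adjusted p = 0.057). Gpx4, which reduces lipid peroxides, rose with SZ-A (0.73, adjusted p = 0.022) and passed in 14 of 14. Prdx4 fell (-0.41, adjusted p = 0.043) but passed in 5 of 14, without SZ-A mouse 3, 5 or 6 or HFD mouse 4 or 6. Sod1, the cytosolic superoxide dismutase, had a difference of 0.60 that did not pass (adjusted p = 0.058), except without SZ-A mouse 2 (adjusted p = 0.0016). With 1 mouse left out the number that rose ran from 1 (without HFD mouse 5) to 6 (without SZ-A mouse 5).

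Deviations from the group mean show which genes varied together from mouse to mouse. They were computed for the 6 members and for the 12450 genes that average 1 FPKM or more over the 20 mice, among which Nox4 is not. The 10 pairs among the 5 phagocyte subunits had Pearson correlations of 0.631 to 0.942, highest for Cyba with Ncf4 and lowest for Cybb with Cyba. The 5 pairs with Nox4 had 0.279 to 0.637. Within HFD mice all 5 pairs with Nox4 were below 0 (-0.55 to -0.19), whereas they were at 0.613 to 0.892 within NC mice and at 0.642 to 0.814 within SZ-A mice. Among the 12450 genes, those most like Cybb were Ptprc (0.965), which encodes the leukocyte antigen CD45, Rab8b (0.954), Cd48 (0.953), Mitf (0.951) and Plek (0.949). Those most like Nox4 were Gm36161 (0.844), Edn1 (0.838), which encodes endothelin, Ifi203 (0.837), Pamr1 (0.831) and Frmd6 (0.821). All points come from the same libraries and so share depth and tissue make-up, and with NC mouse 6 among them these values describe the 20 mice and are no test.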

How the data were processed

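RNA from eWAT of 20 mice was sequenced as paired reads. The authors aligned the reads to mm10/GRCm38 with HISAT2 and deposited FPKM values for 14776 genes, 1 column per mouse, all above 0 in every mouse. featureCounts 1.5.0-p3 is named in the submitters' processing notes, and the annotation release is not given in the sources used here. With GENCODE exon lengths, 95.9% to 96.3% of the values under 1000 reads came out as whole reads within 0.01, which gave the depth and the voom alternative (5871, 3405 and 610 genes called). Each pair of groups was fitted in limma 3.58.1 (R 4.3.3, eBayes with trend) on log2(FPKM + 1) after leaving out those averaging under 0.1 FPKM, a scale that understates changes of low genes. The study's count test was not used, because values are FPKM. Ratios were compared with exact permutation tests over mice. The counting interval was computed with SciPy 1.17.1. Scripts were tested on simulated data. The members and lists were chosen with earlier results of these data known. Named are the members, the measured oxidase family genes (1 further gene of that list, beside those counted, is not reported here), the 4 genes per other list with the smallest adjusted p in SZ-A against HFD, and the 5 genes most like Cybb and Nox4. Alternatives were other pseudocounts, filters, scalings, weights, limits and models, a replicate block, and leaving out each mouse. Counting intervals cover counting error only. The labels give separate mice as replicates.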

Additional observations from a re-analysis of the deposited data

Results flagged for a closer look

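Among 42 sets of values (genes of the oxidase family and the ratio of Cybb to Nox4, in each group), 5 held a mouse set apart from its group by Dixon's criterion, 2 of them in members, where chance gives about 1 in 20. In NC, mouse 6 was far below the others for Cyba (log2(FPKM + 1) of 3.53, 10.6 FPKM) and for Rac2 (0.48, 0.398 FPKM). The same mouse was far above the others for the log2 ratio of Cybb to Nox4 (6.00, a ratio of 64.2). In SZ-A, mouse 5 was the lowest for Rac1 (5.37, 40.2 FPKM). In HFD, mouse 1 was the highest for Rap1a (6.05, 65.4 FPKM).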

How the results depend on the processing

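Over the members and ratios, 542 alternative values kept their direction and their side of the threshold, 18 lost it, 8 gained it and 0 reversed. In SZ-A against HFD, 1 member passed with the log2 limit of 1.5 in place of 4, and Cyba passed with quantile normalization (adjusted p = 0.029) and, with Ncf1, under array quality weights (8.00e-04 and 0.0027). With 1 mouse left out, 6 members passed in HFD against NC, 3 to 6 in SZ-A against HFD and 5 to 6 in SZ-A against NC. Over all genes, the calls in SZ-A against HFD numbered 3349, with 2088 when all 3 groups shared a fit and 6403 under array quality weights; those in SZ-A against NC numbered 678, with 1527 and 2639 likewise, 441 and 423 without NC mouse 1 or 2, and 425 without SZ-A mouse 6. Most same-numbered mice did not deviate together (correlations over 0.1 in 2 of 6, 3 of 7 and 2 of 6 numbers). Same-numbered mice were each other's best match for 0, 0 and 1 numbers, the 1 being mouse 4 of NC and SZ-A (0.58). The numbers were therefore taken as names. With a replicate block all the same, 6 members passed in HFD against NC, 4 in SZ-A against HFD and 3 in SZ-A against NC, where Cyba (adjusted p = 0.057) and Rac2 (0.075) were lost and calls over all genes fell to 173. The ratio of Cybb to Nox4 in SZ-A against NC gave a difference of 4.33 in mean rank with p = 0.051 in the exact permutation test on ranks, and 1.01 to 1.72 on the log2 scale with 1 mouse left out, where 5 of 13 exact permutation tests missed 0.05 (without NC mouse 1, 2, 3 or 5 or SZ-A mouse 6). The cause was not tested. Depth limited Nox4, which held 1 to 157 reads in NC, and its fold change moved with the pseudocount.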

Other observations

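Only some of the listed markers of neutrophils, B cells and dendritic cells were measured. All genes of the deposited table were above 0 in every mouse, so a marker that was not analysed gives no level in any group. Of 10 neutrophil markers 2 were measured, and the others were not analysed here. S100a8 averaged 3.16 FPKM in NC, 7.32 in HFD and 7.08 under SZ-A, and Csf3r, the receptor for granulocyte colony-stimulating factor, 0.644, 3.13 and 2.51 FPKM. Csf3r rose with HFD (log2 difference 1.37, adjusted p = 1.89e-05) and passed in 13 of 13 fits with 1 mouse left out. S100a8 rose by 1.18 (adjusted p = 0.046) but passed in 4 of 13, missing the threshold without HFD mouse 1, 2, 4, 6 or 7 or NC mouse 1, 2, 5 or 6 (0.86, adjusted p = 0.077 without NC mouse 6). Neither passed in SZ-A against HFD (-0.06, adjusted p = 0.92, and -0.45, adjusted p = 0.24). With 1 mouse left out, S100a8 passed in 0 of 14 limma fits and Csf3r in 1 of 14 (adjusted p = 0.0012). The SZ-A mean of Csf3r was 1.53 FPKM without mouse 5 (8.41 FPKM). Of the measured markers, 0 of 2 for B cells, 0 of 6 for T cells and 1 of 3 for dendritic cells rose with HFD, and 0, 1 and 1 fell with SZ-A in limma (0, 0 to 2 and 0 to 1 with 1 mouse left out). At an unadjusted p under 0.05, in either direction, 0, 2 and 1 differed between HFD and NC, and 0, 3 and 2 between SZ-A and HFD. Endothelial markers passed in 0 of 7 in all 3 comparisons in limma, and the 1 mesothelial marker measured passed in none. At an unadjusted p under 0.05, 2 endothelial markers and the mesothelial marker differed between SZ-A and HFD, and 0 did in the other two comparisons. Of 7 smooth muscle and mural markers, 2 rose and 2 fell with HFD (4 fell without NC mouse 6), and 1 rose and 2 fell with SZ-A (0 to 1 and 1 to 2 with 1 mouse left out). Both measured epithelial markers fell with HFD, and their summed level was 5.86 to 523 FPKM in NC mice, highest in NC mice 6 and 1 (523 and 510), 0.718 to 3.30 in HFD mice and 0.050 to 195 in SZ-A mice, where mice 7 and 2 held 195 and 147. Of 10 adipocyte markers 1 rose and 2 fell with HFD (6 fell without NC mouse 6), and 2 rose with SZ-A (2 to 5 with 1 mouse left out). The median log2 difference over the 10 was -0.21 with HFD and 0.88 with SZ-A. For these marker counts, the shares of all genes tested were 21% higher and 20.1% lower with HFD. With SZ-A they were 9.47% higher and 13.3% lower.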
